A study of Rattus norvegicus with 16 samples.

Results

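The thioredoxin and peroxiredoxin system was followed here through 10 genes: the thioredoxins Txn1 and Txn2, the thioredoxin reductases Txnrd1 and Txnrd2, the thioredoxin inhibitor Txnip, and the peroxiredoxins Prdx1, Prdx2, Prdx3, Prdx5 and Prdx6. They were taken by symbol from the deposited count table, which held all 10 names among its 32623 genes, and 22082 of those were counted in 1 library or more. All 10 passed the filter on low counts in every comparison, with 156 counts (Txnrd2) to 43933 counts (Prdx1) per library.

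Thioredoxins are small proteins that reduce disulfide bonds in other proteins, and thioredoxin reductases, which are selenoenzymes, restore them with electrons from NADPH. Peroxiredoxins break down hydrogen peroxide and related peroxides with a reactive cysteine, and most of them are then reduced again by thioredoxin. Renal tubule cells are rich in mitochondria, a major source of such peroxides.

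The study asked how acidic medium changes gene expression in a co-culture of rat kidney lines. NRK-52E, an epithelial line, grew on permeable filter inserts above NRK-49F, a fibroblast line, which grew in the wells of the plate. After 24 h without serum, the co-cultures were kept for 48 h at pH 7.4, the control, or at pH 6.0, and poly(A) RNA of each line was sequenced. The groups were thus NRK-52E at pH 7.4 (replicates 1, 2, 5 and 6), NRK-52E at pH 6.0 (replicates 3, 4, 7 and 8), NRK-49F at pH 7.4 (replicates 9, 10, 13 and 14) and NRK-49F at pH 6.0 (replicates 11, 12, 15 and 16). Every library came from a co-culture, and lines grown alone were not analysed here. Library totals ran from 16201084 to 34784862 counts. The labels do not say whether replicates came from separate cultures, so the p-values measure only the spread between these samples, which may be technical. Nor do they say which libraries of the lines shared a co-culture, so all libraries were taken as independent and no pairing was used. In these bulk samples, fewer cells and less RNA per cell cannot be told apart.

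The labelled cell types were checked against marker lists. Of 8 epithelial markers, Krt8 was the most abundant in every group. Its mean was higher in NRK-49F at pH 7.4 (854.8 FPM) than in NRK-52E at pH 7.4 (434 FPM). At pH 6.0 the order was turned, and Krt8 was called higher in NRK-52E (311.5 FPM) than in NRK-49F (205.8 FPM). FPM are fragments per 10⁶ fragments of a library, whose total was scaled by its TMM factor (trimmed mean of M values) to make libraries comparable. Cdh1, which encodes E-cadherin, had 28 to 45 counts per library in NRK-52E at pH 7.4 and 0 in NRK-49F at pH 7.4. At pH 6.0 Cdh1 had 2 to 12 counts in NRK-52E and 4 to 9 in NRK-49F. Epcam had at most 2 counts in any library. The summed level of the epithelial list was 435 to 502 FPM (NRK-52E, pH 7.4), 296 to 367 FPM (NRK-52E, pH 6.0), 795 to 955 FPM (NRK-49F, pH 7.4) and 199.0 to 220.0 FPM (NRK-49F, pH 6.0). Of 8 fibroblast markers, Col1a1 led in NRK-49F (mean 6258 FPM at pH 7.4, against 23.8 FPM in NRK-52E) and Col3a1 led in NRK-52E (mean 6270.0 FPM at pH 7.4, against 462 FPM in NRK-49F), while Thy1 had 0 counts in all 16 libraries. The fibroblast list summed to 6195 to 6429 FPM (NRK-52E, pH 7.4), 1824 to 3207 FPM (NRK-52E, pH 6.0), 6644 to 7673 FPM (NRK-49F, pH 7.4) and 7709 to 9377 FPM (NRK-49F, pH 6.0). Other markers went with the labels at pH 7.4: Krt7 had means of 36.95 FPM in NRK-52E and 0.467 FPM in NRK-49F, and Pdgfra had 0.289 and 395 FPM. Of 7 fibroblast markers tested at pH 7.4, 5 were called higher in NRK-49F and 1 in NRK-52E, and of 4 epithelial markers 2 were called higher in NRK-52E, with 1 lower there. Since 33.3% of all genes tested at pH 7.4 were called in each direction, so few epithelial calls say little by number. The markers thus went in part with the labels and in part against them, and the lines are called by their names. These lists moved with line and with pH, as the genes below did, and their part in the results was not tested.

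In NRK-52E, 7 of the 10 genes were higher and 1 was lower at pH 6.0. A gene was called where the false discovery rate (FDR, the p-value adjusted over all genes tested) was below 0.01 in both edgeR and DESeq2 with the same sign. Of all 13735 genes tested in that line, 28.2% were called higher, 28.5% lower and 56.7% in either direction. In NRK-49F, 6 of the 10 were higher at pH 6.0 and 0 were called lower, where 18.4% of all genes tested were higher, 19.4% lower and 37.8% either. For the genes called lower there, edgeR alone and DESeq2 alone also gave 0 of the 10, and 1 (Txn2) had an unadjusted p below 0.05. A log2 fold change of 1 is a doubling, and over the 10 genes its median was 1.05 for NRK-52E and 0.52 for NRK-49F, against 0.00 for all genes tested in either line. Txnrd1, Txnip, Prdx3 and Prdx5 rose in both lines, and Txnrd2 was the 1 gene called in opposite directions. Whether the pH effect differed between the lines was tested as an interaction, the log2 fold change in NRK-52E minus that in NRK-49F. It was called for 8 of the 10 genes (36.9% of all 14679 genes tested), 5 more positive in NRK-52E (19.3%) and 3 more negative (17.5%).

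**Figure D1:**
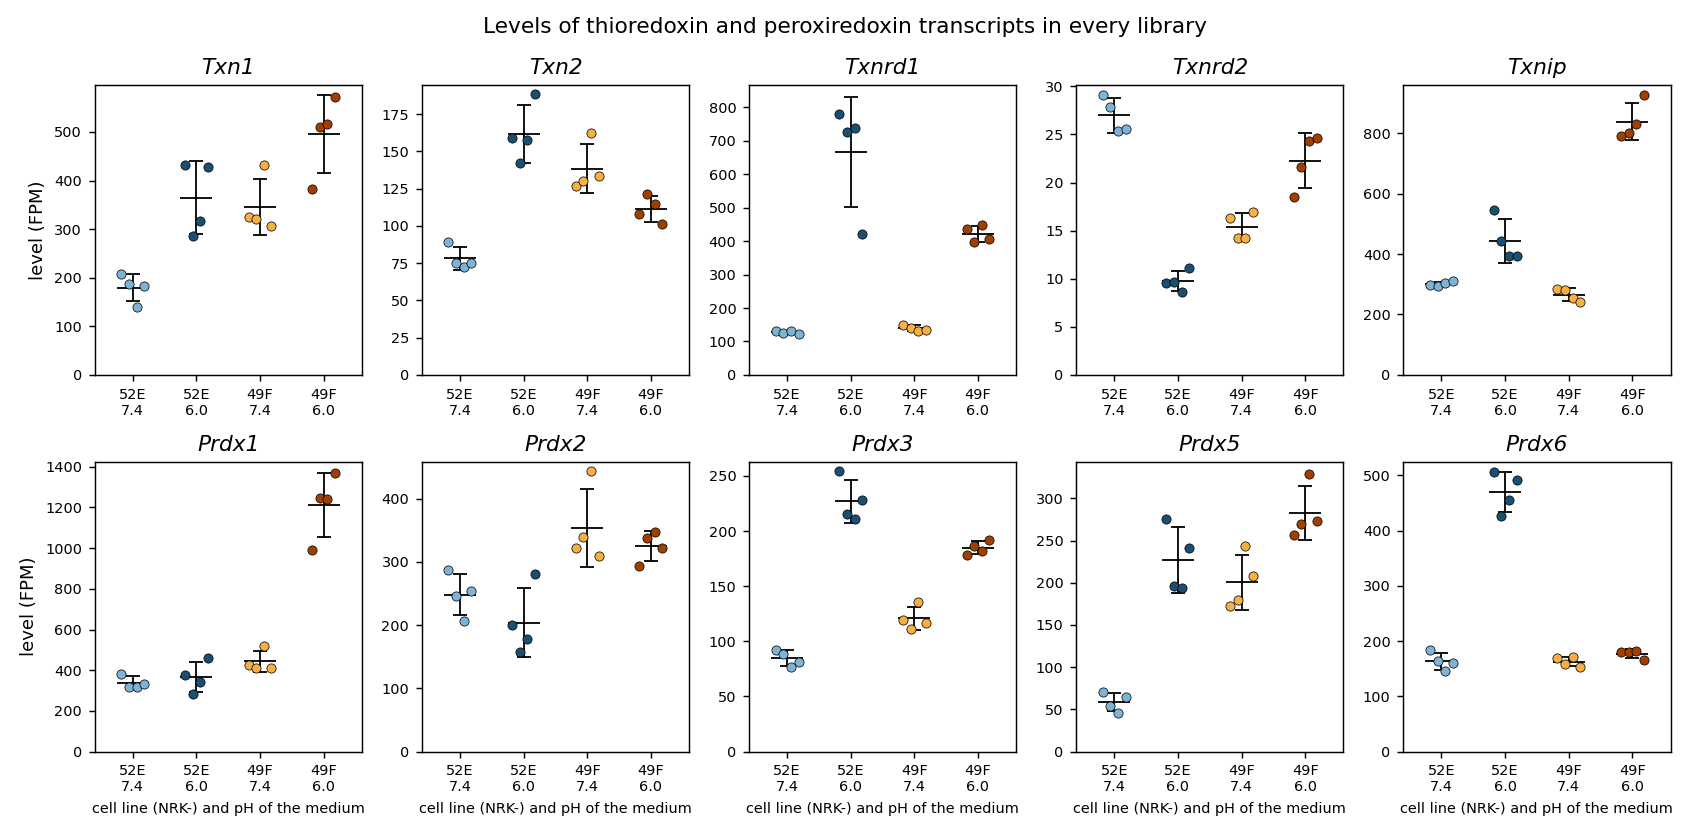
Level of each gene in FPM (vertical axes, each from 0) in the 4 libraries of each group (points), with the mean and SD (black bars), by cell line and pH of the medium. Mean Txnrd1 climbed from 127 to 666 FPM in NRK-52E; in NRK-49F it climbed from 139.6 to 422 FPM, and Txnrd2 fell in NRK-52E and rose in NRK-49F.

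Txn1 is the cytosolic thioredoxin, which also enters the nucleus. In NRK-52E it measured 208, 187, 140.5 and 183 FPM in replicates 1, 2, 5 and 6 at pH 7.4, and 431, 286, 316 and 427 FPM in replicates 3, 4, 7 and 8 at pH 6.0. In NRK-49F it measured 325, 320.4, 431 and 307 FPM in replicates 9, 10, 13 and 14 at pH 7.4, and 383, 509.5, 517 and 571 FPM in replicates 11, 12, 15 and 16 at pH 6.0. Every pH 6.0 library of NRK-52E lay above every pH 7.4 library, whereas in NRK-49F the groups overlapped because replicate 13 (pH 7.4) was above replicate 11 (pH 6.0). The log2 fold change in NRK-52E was 1.04 (SE 0.16, n = 4 per group, edgeR adjusted p = 0.000208). It was 0.52 in NRK-49F (SE 0.14, n = 4 per group, edgeR adjusted p = 0.01), which missed the threshold before rounding. Without replicate 13 the NRK-49F value was 0.65 (edgeR adjusted p = 0.00106) and without replicate 11 it was 0.62, both called. Of 19 alternatives, 10 called it, among them the fit with a number from the column names as covariate (0.51). Replicates 1 to 4 share this number, whose meaning is not stated, as do 5 to 8, 9 to 12 and 13 to 16. Within replicates 1 to 4 alone, the NRK-52E value was 0.85 and was not called (edgeR adjusted p = 0.0117). The difference between the lines was not called (0.50, 95% confidence interval 0.03 to 0.98, edgeR adjusted p = 0.0712), and its value was 0.31 without replicate 3 and 0.26 with libraries scaled by totals. Both settings also lowered the median difference over all genes, to -0.12 without replicate 3 and -0.25 with totals, against -0.01.

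Txn2, the mitochondrial thioredoxin, measured 89.6, 75.2, 72.5 and 75.4 FPM in NRK-52E at pH 7.4 and 159, 142, 158 and 189 FPM at pH 6.0, in the same order of replicates. In NRK-49F it measured 127, 130.4, 163 and 134 FPM at pH 7.4 and 108, 121, 115 and 101 FPM at pH 6.0. The groups of both lines were apart, with pH 6.0 above pH 7.4 in NRK-52E and below it in NRK-49F. The rise in NRK-52E had a log2 fold change of 1.07 (SE 0.11, edgeR adjusted p = 9.99e-06). The NRK-49F value of -0.32 was not called (95% confidence interval -0.55 to -0.08, edgeR adjusted p = 0.0256), and it ran from -0.46 to -0.15 over the alternatives. The interaction was 1.37 (SE 0.15, edgeR adjusted p = 9.98e-07). At pH 7.4 Txn2 was thus lower in NRK-52E than in NRK-49F, and at pH 6.0 the order was turned.

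Txnrd1, the cytosolic reductase, changed more than any other of the 10 in NRK-52E by log2 fold change. Its level there was 130.1, 125, 132 and 122 FPM in replicates 1, 2, 5 and 6 at pH 7.4, and 780.4, 726, 739 and 421 FPM in replicates 3, 4, 7 and 8 at pH 6.0. In NRK-49F it was 151, 141, 133 and 134 FPM in replicates 9, 10, 13 and 14 at pH 7.4, and 436, 396, 449 and 407 FPM in replicates 11, 12, 15 and 16 at pH 6.0. All pH 6.0 libraries lay far above those at pH 7.4 in both lines, and replicate 8 was low within its group. The mean of NRK-52E was 5.24 times higher at pH 6.0 (log2 fold change 2.40, SE 0.17, edgeR adjusted p = 7.39e-07). In NRK-49F it was 3.02 times higher (log2 fold change 1.59, SE 0.09, edgeR adjusted p = 9.25e-08). The rise was larger in NRK-52E by 0.79 on the log2 scale (SE 0.19, edgeR adjusted p = 0.00247). That difference was not called without replicate 3 (0.60) or with libraries scaled by their totals (0.55, edgeR adjusted p = 0.0245). Both settings also lowered the interaction median over all genes, to -0.12 without replicate 3 and -0.25 with totals, against -0.01.

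Txnrd2, the mitochondrial reductase, went the opposite way in NRK-52E. In NRK-52E it measured 29.1, 27.9, 25.4 and 25.6 FPM at pH 7.4 and 9.55, 9.69, 8.59 and 11.1 FPM at pH 6.0. The NRK-49F values were 16.3, 14.3, 14.2 and 16.9 FPM at pH 7.4 and 18.5, 21.6, 24.3 and 24.7 FPM at pH 6.0. The 4 groups did not overlap, from NRK-52E at pH 7.4, the highest, through NRK-49F at pH 6.0 and NRK-49F at pH 7.4 to NRK-52E at pH 6.0. In NRK-52E it fell by 1.46 on the log2 scale (SE 0.13, edgeR adjusted p = 3.06e-06). In NRK-49F it rose by 0.53 (SE 0.13, edgeR adjusted p = 0.00385), a call that was lost without replicate 9, 10, 15 or 16 (0.48 to 0.61 over the 8 libraries left out in turn) and within replicates 9 to 12 alone (0.41) or 13 to 16 alone (0.65). The interaction was -2.00 (SE 0.18, edgeR adjusted p = 8.96e-08), the largest in size among the 10.

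Txnip binds reduced thioredoxin and inhibits it, and is an arrestin relative that also lowers glucose uptake. In NRK-52E it measured 299, 296, 305 and 309.7 FPM at pH 7.4 and 546, 442, 393 and 393 FPM at pH 6.0. NRK-49F had 285, 281, 254 and 240.2 FPM at pH 7.4 and 790.5, 800.5, 831 and 925 FPM at pH 6.0. It was close in the lines at pH 7.4, higher at pH 6.0 in both, and highest in NRK-49F at pH 6.0, with no overlap between the 4 groups. The log2 fold change was 0.56 in NRK-52E (SE 0.11, edgeR adjusted p = 0.000967) and 1.66 in NRK-49F (SE 0.10, edgeR adjusted p = 1.72e-07). Within replicates 5 to 8 alone, the NRK-52E value was 0.37 and was not called (edgeR adjusted p = 0.0726). With all 8 libraries scaled by totals it was 0.35 and still called. The inhibitor thus rose less in NRK-52E than in NRK-49F (interaction -1.10, SE 0.15, edgeR adjusted p = 9.19e-06), the reverse of Txnrd1.

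Prdx1 is an abundant peroxiredoxin of the cytosol. In NRK-52E it measured 384, 317, 316 and 332 FPM at pH 7.4 and 375, 282, 344 and 460.0 FPM at pH 6.0. NRK-49F had 428, 413, 520.4 and 410.3 FPM at pH 7.4 and 993, 1246, 1240.1 and 1371 FPM at pH 6.0. The pH groups overlapped in NRK-52E and were wide apart in NRK-49F. In NRK-49F the mean was 2.74 times higher at pH 6.0 (log2 fold change 1.45, SE 0.13, edgeR adjusted p = 2.57e-06). The NRK-52E value of 0.13 was not called (95% confidence interval -0.19 to 0.45, edgeR adjusted p = 0.437), and it ran from -0.11 to 0.33 over the alternatives. The interaction was called (-1.34, SE 0.19, edgeR adjusted p = 1.99e-05).

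Prdx2, the other mainly cytosolic peroxiredoxin of the same type, was called for pH in neither line. It ranged from 207 to 287 FPM in NRK-52E at pH 7.4 and from 158 to 281 FPM at pH 6.0. In NRK-49F it ranged from 310.0 to 444 FPM at pH 7.4 and from 294 to 347 FPM at pH 6.0. The pH groups overlapped in both lines. The log2 fold change was -0.27 in NRK-52E (95% confidence interval -0.65 to 0.12, edgeR adjusted p = 0.191) and -0.12 in NRK-49F (95% confidence interval -0.40 to 0.15, edgeR adjusted p = 0.422). Without replicate 8, the highest at pH 6.0, the NRK-52E value was -0.47 and was called (edgeR adjusted p = 0.00363). Over all alternatives it ran from -0.59 to 0.01 in NRK-52E, and from -0.19 to 0.01 in NRK-49F. The interaction was not called (-0.16, 95% confidence interval -0.62 to 0.30, edgeR adjusted p = 0.564) and ran from -0.41 to -0.06.

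Prdx3 is the peroxiredoxin found in mitochondria alone. Its levels in NRK-52E ran from 76.8 to 92.4 FPM at pH 7.4 and from 211 to 254 FPM at pH 6.0. In NRK-49F they ran from 111 to 136 FPM at pH 7.4 and from 178 to 192 FPM at pH 6.0. No groups overlapped, and NRK-52E held both the lowest group (pH 7.4) and the highest (pH 6.0). The log2 fold change was 1.43 in NRK-52E (SE 0.09, edgeR adjusted p = 5.01e-07) and 0.61 in NRK-49F (SE 0.09, edgeR adjusted p = 0.000134). The NRK-49F call was lost within replicates 13 to 16 alone (0.56, edgeR adjusted p = 0.0309). The rise was larger in NRK-52E (interaction 0.81, SE 0.13, edgeR adjusted p = 4.05e-05).

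Prdx5, a peroxiredoxin of mitochondria, peroxisomes and cytosol, measured 70.1, 54.3, 45.2 and 65.0 FPM in NRK-52E at pH 7.4 and 276, 197, 194 and 242 FPM at pH 6.0. In NRK-49F it measured 173, 179, 244 and 208 FPM at pH 7.4 and 257, 270.1, 329 and 273 FPM at pH 6.0. The pH groups were apart in both lines, and NRK-52E at pH 7.4 was the lowest of the 4. The mean of NRK-52E was 3.87 times higher at pH 6.0 (log2 fold change 1.97, SE 0.16, edgeR adjusted p = 1.99e-06). In NRK-49F the log2 fold change was 0.49 (SE 0.12, edgeR adjusted p = 0.00577), and this call was lost without replicate 9, 10, 12, 14 or 15 (0.42 to 0.61 over the 8 libraries left out in turn). It was also lost within replicates 13 to 16 alone (0.41) and with all 16 libraries in 1 fit (0.49). The interaction was 1.46 (SE 0.21, edgeR adjusted p = 1.82e-05). Since the counting call given sets no strand option, reads of overlapping genes cannot be told apart. Prdx5 overlaps Trmt112 in RefSeq, and Trmt112 rose in NRK-52E as well (log2 fold change 1.17, SE 0.15, edgeR adjusted p = 5.44e-05). Whether reads of Trmt112 add to the Prdx5 value was not tested.

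Prdx6 differs from the others in using glutathione rather than thioredoxin, and it is also a phospholipase. In NRK-52E it measured 184, 163.5, 145 and 160.2 FPM at pH 7.4 and 507, 427, 456 and 492 FPM at pH 6.0. In NRK-49F it measured 169, 158, 171 and 153 FPM at pH 7.4 and 181, 179, 183 and 165 FPM at pH 6.0. NRK-52E at pH 6.0 stood alone, and both pH 7.4 groups lay in the same range. The log2 fold change was 1.54 in NRK-52E (SE 0.10, edgeR adjusted p = 4.33e-07). The NRK-49F value of 0.12 was not called (95% confidence interval -0.06 to 0.30, edgeR adjusted p = 0.253). The interaction was called (1.41, SE 0.12, edgeR adjusted p = 8.51e-08). Prdx1 and Prdx6 were thus mirror cases, each called higher at pH 6.0 in 1 line, with the difference between the lines called for both.

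**Figure D2:**
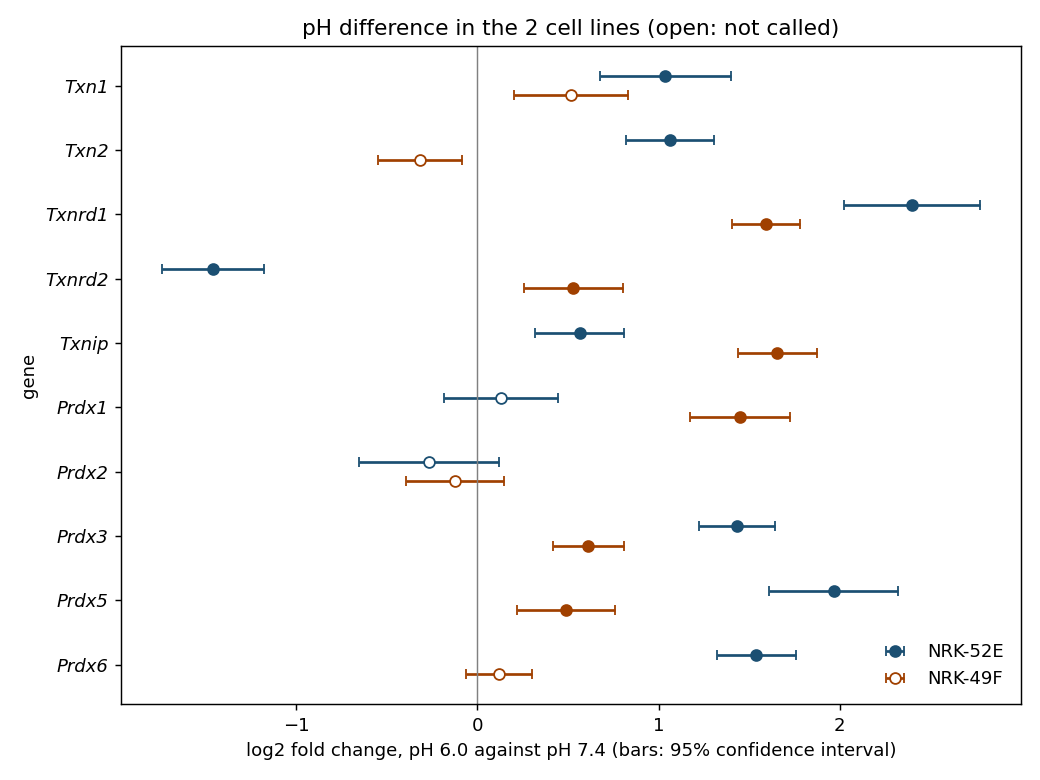
Log2 fold change of pH 6.0 against pH 7.4 (horizontal axis) for each gene in NRK-52E and NRK-49F, with 95% confidence intervals; filled points passed FDR 0.01 in both tools. Txnrd1 (2.40 and 1.59) was called in both lines, Prdx6 in NRK-52E (1.54) and Prdx1 in NRK-49F (1.45).

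For each single gene, log2(FPM + 1) was also compared by exact permutation (two-sided), where 4 libraries against 4 can give no p below 0.0286. That p is reached wherever the groups do not overlap, and it was not computed for all genes, so it describes single genes alone. In NRK-52E, Prdx1 (exact p = 0.543) and Prdx2 (exact p = 0.171) did not reach it. In NRK-49F, Txn1 (exact p = 0.0571), Prdx2 (exact p = 0.543) and Prdx6 (exact p = 0.0857) did not reach it.

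The cell lines were also compared directly, as NRK-52E minus NRK-49F, where line and culture vessel cannot be told apart. At pH 7.4, 6 of the 10 genes were called, 2 higher in NRK-52E and 4 lower, while 66.6% of all 14026 genes tested were called, 33.3% in each direction. At pH 6.0, 7 were called, 3 higher and 4 lower, while 59.8% of all 13796 genes tested were called, 28.6% higher and 31.3% lower. These shares are near those of all genes, so the counts alone are no result about the 10. At pH 7.4 the genes lower in NRK-52E were Txn1 (log2 difference -0.86), Txn2 (-0.74), Prdx3 (-0.43) and Prdx5 (-1.69). Those higher were Txnrd2 (0.89) and Txnip (0.27). The Txnip call at pH 7.4 was lost without replicate 1, 2, 5, 6, 13 or 14, with values of 0.22 to 0.30 over the 8 libraries left out in turn, and with no filter, with the covariate or with 16 libraries in 1 fit (0.19). Totals moved it the other way, to 0.58, and brought Txn1 to -0.55 and Txn2 to -0.43, all still called. In the covariate fit the line difference at pH 7.4 rests only on replicates 1, 2, 13 and 14, whose number both lines share. Scaled by library totals, the Prdx3 difference at pH 7.4 was -0.12 and was not called (edgeR adjusted p = 0.157), while Prdx6 (0.39) and Txnrd1 (0.26) were called higher in NRK-52E. Txnrd1 was -0.05 and not called there in the comparison as designed (95% confidence interval -0.20 to 0.10, edgeR adjusted p = 0.511). Prdx1 (-0.31, edgeR adjusted p = 0.0141) and Prdx2 (-0.43, edgeR adjusted p = 0.01, above the threshold before rounding) were not called, though both were without replicate 1; scaled by totals they were 0.00 and -0.12. Prdx6 was near 0 there (0.09, 95% confidence interval -0.09 to 0.26).

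At pH 6.0, Prdx6 (log2 difference 1.41), Txnrd1 (0.66) and Txn2 (0.54) were higher in NRK-52E. Lower there were Prdx1 (-1.73), Txnrd2 (-1.19), Txnip (-0.91) and Prdx2 (-0.67). The Txnrd1 groups overlapped, since replicate 8 of NRK-52E (421 FPM) lay within the NRK-49F range, and its call was lost without replicate 3, 7, 11, 12, 15 or 16 (0.60 to 0.83 over the 8 libraries left out in turn) and with the covariate (0.82). The Prdx2 call was lost without replicate 3 (-0.64) or 7 (-0.59), and the Txn2 call with the number in the column names as covariate (0.49). With that covariate the line difference at pH 6.0 rests only on replicates 3, 4, 15 and 16, whose number both lines share. Txn1 (-0.44, 95% confidence interval -0.80 to -0.08), Prdx3 (0.30, 95% confidence interval 0.09 to 0.51) and Prdx5 (-0.31, 95% confidence interval -0.61 to -0.02) were not called. Scaled by totals, Prdx5 was -0.17. Prdx3 was called with libraries scaled by totals (0.44) or by DESeq2 size factors. Txn2 and Txnrd2 were called in opposite directions at the 2 pH values, Txn2 from lower to higher in NRK-52E and Txnrd2 from higher to lower.

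Other genes of the pathway were counted in 6 lists, to be read against the 56.7% (NRK-52E) and 37.8% (NRK-49F) of all genes tested that were called in either direction, and the all-gene median of 0.00. With 4 to 15 genes tested per list, counts near those shares are no result about a list. Among other peroxide and peroxiredoxin genes (Prdx4, the sestrins Sesn1, Sesn2 and Sesn3, and Txnrd3, with Srxn1 not analysed here), 2 of 5 tested rose and 1 fell in NRK-52E, and the median log2 fold change was -0.01. In NRK-49F, 1 rose and 1 fell, with a median of -0.13. Sesn2, a stress-induced regulator of growth signalling, went in NRK-52E from a mean of 28.9 ± 3.24 FPM to 213 ± 61.9 FPM at pH 6.0 (SD, n = 4), and in NRK-49F from 38.0 ± 4.81 to 34.4 ± 10.3 FPM (SD, n = 4). Its mean was thus 7.38 times higher at pH 6.0 in NRK-52E (log2 fold change 2.89, SE 0.20, edgeR adjusted p = 6.69e-07) and the interaction was 3.04 (edgeR adjusted p = 2.68e-07). Sesn3 went from 19.98 to 7.65 FPM in the means of NRK-52E (log2 fold change -1.37, SE 0.28), a call lost within replicates 1 to 4 alone and within 5 to 8 alone. Txnrd3, a reductase best known from the testis, rose in NRK-49F from 29.4 to 55.1 FPM in the means (log2 fold change 0.90, SE 0.11) and rose more in NRK-52E (log2 fold change 1.56, SE 0.15, interaction 0.65, called). Sesn1 fell in NRK-49F from 34.7 to 22.5 FPM (log2 fold change -0.62, SE 0.10).

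Of the thioredoxin-like proteins, 15 were tested (Txndc2, Txndc8 and Nme8 were too low, and Nme9 was not analysed here). In NRK-52E 7 rose and 2 fell, with a median of 0.26, but 5 fell with libraries scaled by totals or without replicate 8. In NRK-49F 5 rose and 3 fell, with a median of 0.20, and 3 rose without replicate 9, 10, 14 or 15. Txndc11, a membrane protein of the endoplasmic reticulum, went in NRK-52E from a mean of 31.4 ± 1.27 FPM to 211 ± 20.4 FPM at pH 6.0 (SD, n = 4). Its log2 fold change was 2.76 (SE 0.09, edgeR adjusted p = 1.93e-08), against 0.25 in NRK-49F (not called, edgeR adjusted p = 0.206), and the interaction was 2.50 (edgeR adjusted p = 2.16e-08). Without replicate 16 the NRK-49F value was 0.41 and was called, as it was within replicates 9 to 12 alone (0.53). Nxn, which encodes nucleoredoxin, fell in both lines (log2 fold change -1.08 and -0.65 in NRK-52E and NRK-49F). Tmx3, a disulfide isomerase of the endoplasmic reticulum, rose in NRK-49F from 29.4 to 62.9 FPM in the means (log2 fold change 1.09, SE 0.17), with a called interaction of -0.92.

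Glutaredoxins carry out similar reductions with glutathione. Of 4 tested, 2 rose and 1 fell in NRK-52E (median 0.60), and 0 rose and 1 fell in NRK-49F (median 0.09). Glrx3 rose in NRK-52E from 57.2 to 176.5 FPM in the means (log2 fold change 1.64, SE 0.12), and the interaction was 1.59 (edgeR adjusted p = 6.39e-07). Glrx fell in both lines, from 5.40 to 1.50 FPM in NRK-52E (log2 fold change -1.86, SE 0.31) and from 47.5 to 19.6 FPM in NRK-49F (log2 fold change -1.28, SE 0.17).

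Of 9 proteins that thioredoxin reduces or binds, 0 rose and 4 fell in NRK-52E (median -0.38), and 3 rose and 2 fell in NRK-49F (median 0.25). Apex1, a DNA repair enzyme that also keeps transcription factors reduced, fell in NRK-52E from 67.2 to 27.6 FPM in the means (log2 fold change -1.27, SE 0.15). In NRK-49F its means were 70.5 and 70.8 FPM, and the interaction was called (-1.29, edgeR adjusted p = 1.26e-05). Rrm2b, a subunit of ribonucleotide reductase, rose in NRK-49F (log2 fold change 1.35, SE 0.24), without a called difference between the lines (interaction -0.52). Msrb2, a mitochondrial methionine sulfoxide reductase, fell in NRK-49F (log2 fold change -1.02, SE 0.14, interaction 0.95, called).

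Among the arrestin relatives and regulators of Txnip (7 tested, Mlxipl not analysed here), 3 rose and 1 fell in NRK-52E (median 0.46), and 2 rose and 0 fell in NRK-49F (median 0.58). Arrdc4, the closest relative of Txnip, rose in both lines (log2 fold change 1.69, SE 0.11, in NRK-52E, and a 2.87 times higher mean in NRK-49F). Its interaction was not called (0.16, edgeR adjusted p = 0.396), unlike that of Txnip. Arrdc3 fell in NRK-52E (log2 fold change -0.90, SE 0.20), a call lost without replicate 3 (-0.85) and within either set of 4 libraries. Selenocysteine incorporation, on which the reductases depend, had 8 genes tested, with 3 rising and 1 falling in NRK-52E (median 0.14) and 2 rising and 0 falling in NRK-49F (median 0.15). Trnau1ap rose in NRK-52E from 21.8 to 65.9 FPM in the means (log2 fold change 1.61, SE 0.12), and rose in NRK-49F as well (0.76, SE 0.12, interaction 0.84, called). Secisbp2l rose in NRK-49F from 67.6 to 148 FPM (log2 fold change 1.13, SE 0.16), and rose in NRK-52E as well (1.42, SE 0.19, interaction 0.28, not called). Sephs2, the selenophosphate synthetase, fell in NRK-52E (log2 fold change -0.73, SE 0.20), a call lost without replicate 1, 2, 3, 4, 5, 6 or 7 (-0.78 to -0.58). Within replicates 13 to 16 alone the NRK-49F calls of Sesn1 and Nxn were lost, as were the NRK-52E calls of Glrx within 1 to 4 and Apex1 within 5 to 8, all with the same direction.

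**Figure D3:**
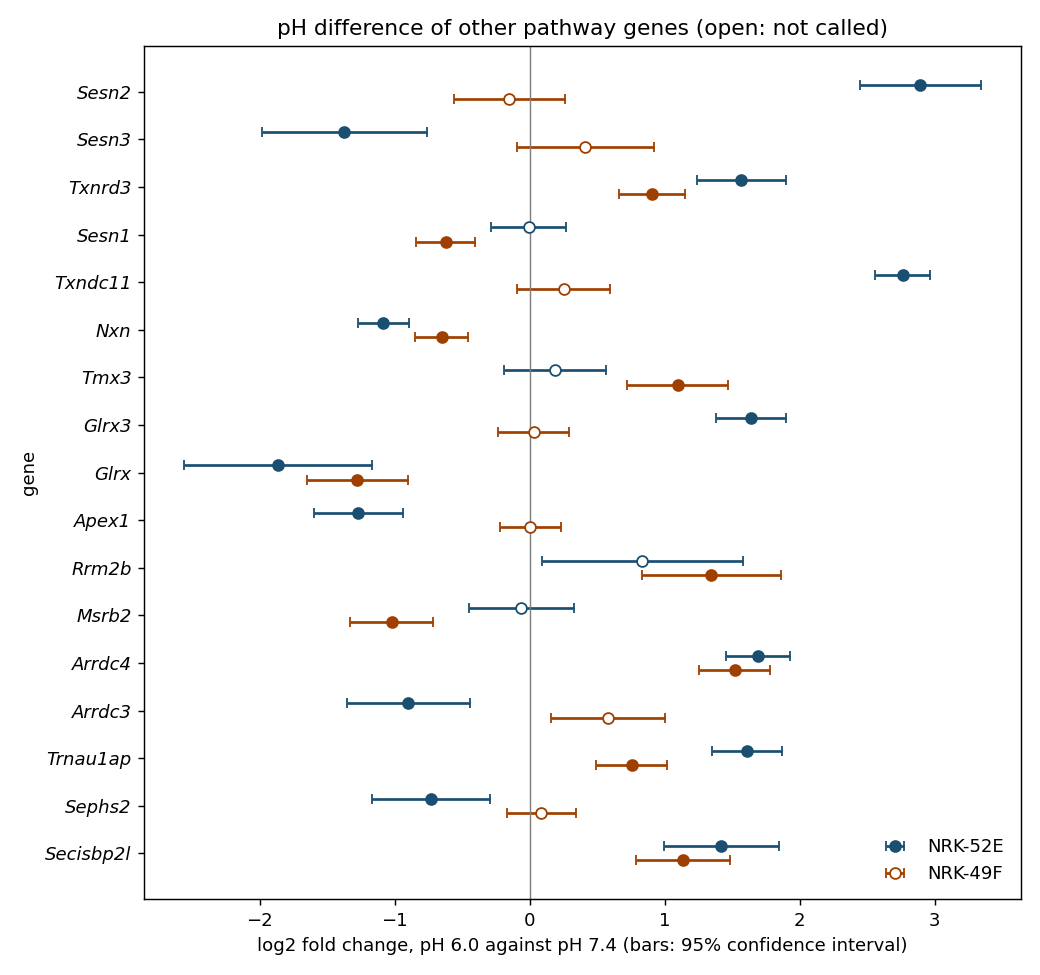
Log2 fold change of pH 6.0 against pH 7.4 (horizontal axis) for the other pathway genes named, in NRK-52E and NRK-49F, with 95% confidence intervals; filled points passed FDR 0.01 in both tools. Sesn2 (2.89) and Txndc11 (2.76) rose most in NRK-52E, and Glrx and Nxn fell in both lines.

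Each gene's level over the 16 libraries was set against 8924 named genes with a mean of at least 10 FPM, as Pearson's r of log2(FPM + 1), which the group differences dominate. Most like Txnrd1 was Mapk6 (r = 0.99, n = 16), with means of 78.6, 217, 75.3 and 160.3 FPM in NRK-52E at pH 7.4 and 6.0 and NRK-49F at pH 7.4 and 6.0, followed by Luc7l2 (r = 0.98). Most like Prdx6 was Grpel1 (r = 0.99, n = 16), a factor of mitochondrial protein import, with means of 54.4, 145, 57.3 and 57.9 FPM in the same order, followed by Ube2k (r = 0.99). For the others the nearest were Atp5md and Polr2g (Txn1), Pmvk and Mfsd5 (Txn2), Mcm3 and Pms2 (Txnrd2), and Hspd1 and Dusp5 (Txnip). Hap1 and Yae1 were nearest to Prdx1, Mrps27 and Tmem147 to Prdx2, Ppa1 and Cda to Prdx3, and Eif1ad and Nif3l1 to Prdx5. These r values lay from 0.96 to 0.99, and 3 (Txnrd2) to 111 (Prdx6) genes passed 0.95.

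The promoters were searched for 2 short sequences, which the choice of genes did not use. RefSeq windows of GRCr8, from 250 bases before to 50 after the annotated start, were at hand for 8 of the 10 genes (2 windows for Txnrd1), and Txnip and Prdx6 had none. The core of the antioxidant response element, the letters TGACNNNGC, was searched on both strands, and 12.1% of all 33469 windows held it. It was found in 1 window each of Txnrd1, Prdx1 and Prdx5, which is 3 of 9 windows. The share of G and C bases ran from 43.7% to 70% over these 9, against a median of 51.7% over all windows. Its part in the matches was not tested. The E-box, CACGTG, which occurred in 6.42% of all windows, was in 0 of the 9. All 3 matches read on the opposite strand, 78, 135 and 1 bases before the start at their first base. The windows are chr7:22755855-22756154 (minus strand), chr5:135383656-135383955 (plus strand) and chr1:213531978-213532277 (minus strand), printed 5′ to 3′ with the match in capitals, and are shown because they hold it. Genes with and without a match were called higher at pH 6.0, and Txn1, Txn2, Txnrd2, Prdx2 and Prdx3 had windows without it. A match is a description of letters and no sign that a factor binds.
Txnrd1: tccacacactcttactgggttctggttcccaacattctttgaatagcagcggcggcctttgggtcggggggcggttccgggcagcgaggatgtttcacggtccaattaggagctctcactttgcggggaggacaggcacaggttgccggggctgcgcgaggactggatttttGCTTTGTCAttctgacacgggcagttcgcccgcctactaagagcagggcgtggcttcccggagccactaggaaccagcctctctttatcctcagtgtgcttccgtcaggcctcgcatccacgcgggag
Prdx1: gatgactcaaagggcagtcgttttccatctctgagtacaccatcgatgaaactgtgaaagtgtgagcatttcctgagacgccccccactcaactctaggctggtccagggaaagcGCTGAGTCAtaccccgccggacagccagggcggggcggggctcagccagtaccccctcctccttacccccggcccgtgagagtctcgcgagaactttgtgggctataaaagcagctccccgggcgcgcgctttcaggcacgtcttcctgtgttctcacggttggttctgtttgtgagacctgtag
Prdx5: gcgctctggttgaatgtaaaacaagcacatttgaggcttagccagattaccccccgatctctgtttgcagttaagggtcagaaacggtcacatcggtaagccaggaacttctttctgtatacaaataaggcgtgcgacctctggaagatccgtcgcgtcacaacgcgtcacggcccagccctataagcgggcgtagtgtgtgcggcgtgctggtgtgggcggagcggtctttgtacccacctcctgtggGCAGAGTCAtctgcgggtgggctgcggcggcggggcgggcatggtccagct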

How the data were processed

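RNA of 16 libraries, 4 for each line and pH, was sequenced by a service company as paired poly(A) libraries. The deposited values are whole-number counts of fragments per gene, made by the authors on rn6 with featureCounts, including reads that map to several places, so genes with near-identical copies elsewhere, such as processed pseudogenes, are uncertain. The aligner is given as tophat2 in the study's methods and as HISAT2 (2.1.0) in the submitters' processing notes; the counting call that the study gives sets no strand option, and the default of that tool ignores strand. The deposited counts were tested with edgeR 4.0.16 (filterByExpr, TMM, quasi-likelihood test) and DESeq2 1.42.0 (Wald test, size factors) under R 4.3.3, on the libraries of the groups compared, with Benjamini-Hochberg adjustment over all genes tested. Fold changes, standard errors, intervals and adjusted p-values are those of edgeR, and a call needed FDR below 0.01 in both tools. FPM used TMM over all 16 libraries, so group means and fold changes from 8 libraries differ slightly. The scripts were tested on simulated data with 200 genes changed, far fewer than were called here. Of changes of 2-fold, 54% to 74% were called in the comparisons of groups and 33% for the interaction. A value that was not called is thus no sign that a change is absent. Library totals of 16201084 to 34784862 counts gave at least 156 counts for every gene of the system. Transcript lengths were not used, so levels are compared within a gene alone.

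The genes and lists were chosen with earlier results of these data known. The rule for named genes took all 10, and from each list, for each line, the called genes that rose and fell most, provided that the higher mean reached 5 FPM and the pH groups did not overlap. It also took the 2 named genes most like each of the 10, and the marker genes. Trmt112 was added after the values were seen.

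Alternatives were DESeq2 size factors in edgeR, scaling by library totals, no filter, a filter of 1 CPM in 4 libraries, either tool alone, FDR below 0.05, each library left out, all 16 libraries in 1 fit, and a number in the column names as a covariate or as a subset. That number (21 for replicates 1 to 4, 22 for 5 to 8, 20 for 9 to 12 and 21 for 13 to 16) has no stated meaning. The lines share 21 alone. As a covariate it therefore leaves a difference between the lines at a given pH to replicates 1 to 4 and 13 to 16.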

Additional observations from a re-analysis of the deposited data

Results flagged for a closer look

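In 3 of 40 sets of 4 values, a library lay far from the other 3, and chance flags about 1 in 20 groups. Replicate 8 (NRK-52E, pH 6.0) had 421 FPM of Txnrd1, against 726 to 780.4 FPM in the others of its group. Replicate 13 (NRK-49F, pH 7.4) had 431 FPM of Txn1, against 307 to 325 FPM, and 520.4 FPM of Prdx1, against 410.3 to 428 FPM.

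The pH effect differed between the lines for 8 genes by the test of the difference (effect in NRK-52E minus effect in NRK-49F, log2 scale). It was more positive in NRK-52E for Prdx5 (1.46), Prdx6 (1.41), Txn2 (1.37), Prdx3 (0.81) and Txnrd1 (0.79). It was more negative for Txnrd2 (-2.00), Prdx1 (-1.34) and Txnip (-1.10).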

How the results depend on the processing

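Of the values of the 10 genes under alternatives, 893 stayed called or not called, 38 lost a call, 28 gained one and 1 was called with its sign turned. That 1 was Txnrd1 between the lines at pH 7.4, which was 0.26 with libraries scaled by totals. Values not called also changed sign, for Prdx1 and Prdx2 in NRK-52E, Prdx2 in NRK-49F and Txnrd1 between the lines at pH 7.4. Scaling by totals moved the median of all genes to -0.21 in NRK-52E, 0.34 between the lines at pH 7.4, 0.12 at pH 6.0 and -0.25 for the interaction, and values taken relative to that median come back near those printed by arithmetic alone (Txn1 in NRK-52E 1.03), which tests nothing. The share of higher among called genes went from 49.7% to 37.6% in NRK-52E, from even to 65.7% between the lines at pH 7.4, and from 52.4% to 33.8% for the interaction. Leaving out replicate 3 moved the interaction median to -0.12 and the share of higher among its called genes to 43.3%. Without each library in turn, the genes of the system called lower in NRK-52E at pH 6.0 numbered 1 to 2, and those called higher in NRK-52E than NRK-49F at pH 7.4 numbered 1 to 2. That last count was 4 with totals and 1 with no filter, with the column number as covariate or with 16 libraries in 1 fit. At pH 6.0 it was 1 with the covariate, against 3. Line differences with the covariate rest only on the libraries whose number both lines share. In NRK-49F, FDR below 0.05 gave 1 called lower (Txn2). In 4 libraries, the number of genes called, pH effect in NRK-52E, was 2820 (replicates 5 to 8), against 7793. The number of genes called, pH effect in NRK-49F, was 1980 (replicates 13 to 16), against 5039, with 3 of the 10 higher rather than 6. Where no cause is named, the cause was not tested. Of 40 group levels, 19 moved by over 1 SD with totals. Whether deeper libraries would change a call was not tested. Cell line, vessel and any handling of a line cannot be told apart.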

Other observations

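Among other pathway genes, the share called between the lines is read against 66.6% (pH 7.4) and 59.8% (pH 6.0) of all genes tested, and counts near those shares are no result about a list. At pH 7.4, 7 of 15 thioredoxin-like genes were called lower in NRK-52E than in NRK-49F and 2 higher (median log2 difference -0.39, against 0.03 over all genes tested), but 4 lower and 6 higher with libraries scaled by totals, and at pH 6.0 4 were lower and 4 higher (median -0.17). Of the 4 glutaredoxins, 3 were lower in NRK-52E at pH 7.4 (median -0.79), and 1 was lower and 1 higher at pH 6.0 (median 0.02). Of 7 arrestin relatives and regulators of Txnip, 4 were higher and 3 lower at pH 7.4 (median 1.04), and 1 was higher and 1 lower at pH 6.0 (median -0.16). Of 5 other peroxide and peroxiredoxin genes, 0 were higher and 3 lower at pH 7.4 (median -0.76), and 1 was higher and 4 lower at pH 6.0 (median -0.96). Of 9 proteins that thioredoxin reduces or binds, 3 were higher (1 with 16 libraries in 1 fit) and 2 lower at pH 7.4 (median 0.01), and 0 higher and 4 lower at pH 6.0 (median -0.52). Of 8 genes of selenocysteine incorporation, 3 were higher and 3 lower at pH 7.4 (median 0.10), and 3 higher and 1 lower at pH 6.0 (median 0.06). The covariate changed these counts to 1 lower at pH 7.4 and to 1 higher and 0 lower at pH 6.0. With it, these differences rest only on the libraries whose number both lines share.

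The remaining marker lists were low in NRK-52E. The proximal tubule list (7 genes) summed to 24.5 to 46.4 FPM in NRK-52E, led by Aqp1, and to 120.0 to 542 FPM in NRK-49F, led by Ggt1. The endothelial list (2 of 3 genes in the table) stayed below 1 FPM in every library, with Kdr at 0 counts. In the immune list (3 genes), Ptprc had 0 counts in all 16 libraries, while Cd68, a lysosomal protein, had means of 81.8 FPM (pH 7.4) and 242 FPM (pH 6.0) in NRK-49F. The other gene, Csf1r, was low in both lines, with means at pH 6.0 of 1.07 FPM in NRK-52E and 0.035 FPM in NRK-49F. At that pH Csf1r was called higher in NRK-52E, and Cd68 higher in NRK-49F.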
